A study of Rattus norvegicus with 16 samples.

Results

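The hippocampus of rats with an untreated traumatic brain injury (TBI) was compared with the hippocampus of naive rats, on 3 arrays each, which are 6 of the 16 arrays in the series and were chosen by their sample titles. The TBI rats received a severe lateral fluid percussion injury, in which a pressure pulse is delivered to the exposed dura, and no drug. The naive rats were killed without any treatment, so that they lack the anaesthesia and craniotomy of the injured animals as well as the injury, and these cannot be told apart in this comparison. All were Sprague-Dawley rats, male according to the methods, and total RNA of whole hippocampus was taken 24 h after injury. A further 7 arrays, of rats that were injured and given the compounds labelled JM6 (3) or E33 (2) or were sham-operated (2), lay on another slide and are set beside the comparison towards the end. The last 3 arrays were of injured rats given a compound labelled PMI (TBI+PMI), with replicates 1 and 2 on the slide of TBI and naive and replicate 3 on the other. They enter the scaling and the fits over all 16 arrays. Each array was described as a separate sample of its group, and p-values measure the spread between these samples.

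The Agilent Rat miRNA arrays carried 938 probes against 350 miRNAs, and all 6 arrays lay on 1 slide. Between 293 and 365 probes on the TBI arrays and between 296 and 411 on the naive arrays were well above background, with 0 saturated spots. Values are log2 scaled signals, where 0 is an array's own 75th percentile over the probes detected on all 16 arrays and a difference of 1 is 2-fold. A miRNA entered the tests where all 3 arrays of TBI, all 3 of naive, or both, showed its probe well above background, and 169 of the 350 did. Of these, 130 lie outside the 10 miRNAs that the study named, the miR-17 to miR-92a cluster and the imprinted Dlk1-Dio3 region, and they are the main subject here. The brain miRNAs miR-124, miR-128, miR-9, miR-138, miR-218 and miR-137 were well above background on all 6 arrays, while the muscle miRNAs miR-1, miR-133a and miR-206 and the liver miRNA miR-122 were on 0. The muscle miRNA miR-133b was well above background on 5 arrays. Of the gut and skin miRNAs, miR-192 and miR-194 were on all 6, and miR-215, miR-375, miR-203 and miR-205 on 0. On the slide, the naive arrays and TBI replicate 1 shared row 1, and TBI replicates 2 and 3 lay in row 2, so that position is partly tied to group.

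MicroRNAs are short RNAs cut from hairpin precursors, often with several hairpins in 1 transcript. They guide Argonaute proteins to messenger RNAs that pair with the seed, bases 2 to 8 from the 5′ end, and lower the output of those messages. In the brain, neurons, glia, vessels and blood cells each carry characteristic miRNAs, and in bulk tissue fewer cells of a type and less RNA per cell cannot be told apart.

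The mature sequences below, from RefSeq on GRCr8, belong to the miRNAs that the results turn on, with the seed in capitals. They are grouped by shared seed where they share one, because probes for close relatives may also bind each other's targets.
miR-21 (chr10:71902653-71902674, minus strand): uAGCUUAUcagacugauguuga
miR-25 (chr12:22156652-22156673, minus strand): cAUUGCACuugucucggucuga
miR-92a (chr15:98588602-98588622, plus strand, 1 of 2 loci): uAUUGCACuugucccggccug
miR-16 (chr2:155555343-155555364, plus strand): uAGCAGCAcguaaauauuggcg
miR-15b (chr2:155555197-155555218, plus strand): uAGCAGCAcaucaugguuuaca
miR-195 (chr10:55450509-55450529, plus strand): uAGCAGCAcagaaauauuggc
miR-101a (chr5:121081691-121081711, minus strand): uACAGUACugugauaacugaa
miR-101b (chr1:236273982-236274002, plus strand): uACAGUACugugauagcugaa
let-7b (chr7:118684044-118684065, plus strand): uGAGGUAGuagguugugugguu
miR-142-3p (chr10:73055155-73055177, plus strand): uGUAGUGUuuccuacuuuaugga
miR-223 (chrX:65151450-65151470, plus strand): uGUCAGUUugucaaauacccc
miR-873 (chr5:56153150-56153170, minus strand): gCAGGAACuugugagucuccu
miR-344-3p (chr1:124718769-124718791, minus strand): uGAUCUAGccaaagccugaccgu
miR-194 (chr1:212994038-212994059, plus strand, 1 of 2 loci): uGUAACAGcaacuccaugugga
miR-135a (chr7:28499221-28499243, minus strand): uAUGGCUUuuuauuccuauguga
miR-139-5p (chr1:165290865-165290886, plus strand): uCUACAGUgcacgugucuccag
miR-324-5p (chr10:55233378-55233400, plus strand): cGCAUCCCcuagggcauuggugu
miR-342-3p (chr6:133329715-133329737, plus strand): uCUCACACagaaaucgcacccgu
miR-384-5p (chrX:74490939-74490961, minus strand): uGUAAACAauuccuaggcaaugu
miR-30e (chr5:139637504-139637525, minus strand): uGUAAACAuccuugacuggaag
miR-181a (chr13:52037081-52037103, plus strand, 1 of 2 loci): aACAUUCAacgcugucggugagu
miR-181c (chr19:40888314-40888335, plus strand): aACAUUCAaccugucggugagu
miR-181d (chr19:40888484-40888506, plus strand): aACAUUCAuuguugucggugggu

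Few miRNAs had means far apart in TBI and naive hippocampus at 24 h, and miR-21 had the largest difference of the 169 tested, with a 2.59-fold higher mean in TBI. The TBI mean was the higher one for 73 of the 169 miRNAs (43.2%) and the lower one for 96 (56.8%), with a median log2 difference of -0.05. After Benjamini-Hochberg adjustment 0 miRNAs passed limma's test (0% of those tested, smallest adjusted p = 0.129), and at an unadjusted p under 0.05 limma counted 12 higher (7.1%) and 24 lower (14.2%). The methods' t-test, which asks for an unadjusted p under 0.05 and a change above 1.2-fold, called 8 higher (4.73%) and 15 lower (8.88%), and 0 of these after adjustment. In 15 miRNAs (8.88%) all 3 TBI arrays lay above all 3 naive arrays, and in 32 (18.9%) all lay below. An exact two-sided permutation test of 3 arrays against 3 cannot go below p = 0.1.

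The balance of higher and lower miRNAs depended on how the arrays were scaled. With the percentile taken over all probes, the t-test called 11 higher and 3 lower and the arrays did not overlap in 22 higher and 9 lower. Quantile normalization gave 10 and 4 by the t-test and 19 and 14 without overlap. Normexp background correction with an offset of 50 gave 9 and 5 and 17 and 23, and no scaling 0 and 0 and 1 and 2. The authors' own scaled values gave 10 and 4 by the t-test and 19 and 17 without overlap. Those values covered 154 of the 169 miRNAs and none of the 15 star strands, so the set differs as well as the scaling. Without scaling the median difference over all 169 miRNAs was -0.15, against -0.05 with it, so a family near 0 has to be read relative to that median.

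**Figure D1:**
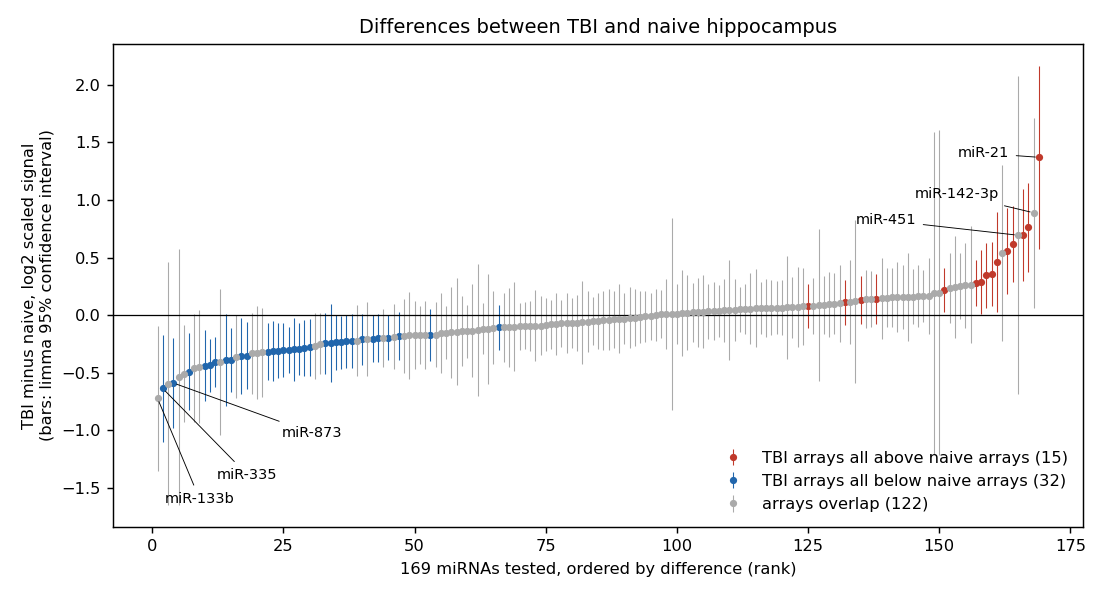
TBI minus naive difference of each of the 169 miRNAs tested (log2 scaled signal, y axis) by rank (x axis), with limma's 95% confidence interval as a bar and colour for whether the 3 TBI and 3 naive arrays overlapped. miR-21 lies alone at the top at 1.37, and most miRNAs lie close to 0 with intervals that cross it.

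Outside the 10 miRNAs and both clusters, 63 of the 130 miRNAs had a higher mean in TBI and 67 a lower one, with a median difference of -0.01. The arrays did not overlap in 8 higher and 14 lower, 5 were higher and 9 lower at an unadjusted limma p under 0.05, and the t-test called 2 higher (miR-21 and miR-25) and 3 lower (miR-873, miR-344-3p and miR-194). Over all 169, 8.88% lay higher and 18.9% lower without overlap, and limma counted 7.1% higher and 14.2% lower. The t-test called 4.73% of the 169 higher and 8.88% lower. None of these shares was larger among the 130. For 57 of the 130 the difference was within 0.1 of 0, and for 101 limma's 95% interval lay inside 1.5-fold in either direction.

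miR-21, a miRNA induced by injury and inflammation in many tissues, had signals of 0.50, 1.85 and 1.73 in TBI hippocampus, against -0.05, 0.11 and -0.10 in naive hippocampus. All TBI arrays lay above all naive arrays, but TBI replicate 1 lay closer to the naive arrays than to the other 2 TBI arrays. The log2 difference was 1.37 (limma adjusted p = 0.13, standard error 0.34). Without TBI replicate 1 it was 1.80, with an adjusted p of 0.000957, and over all alternatives its adjusted p ranged from 0.000957 to 0.375. Of the 7 injury and inflammation miRNAs tested, 6 had a higher mean in TBI and 1 a lower one, with a median of 0.08, against -0.05 over all 169, or -0.02 without scaling. The 6 include miR-146b, which the study chose on these arrays, so its sign is no independent evidence. miR-146a, an inhibitor of NF-κB signalling, had -3.61, -3.17 and -3.07 in TBI hippocampus, against -3.83, -2.76 and -3.52 in naive hippocampus. miR-132, an activity-regulated miRNA of neurons, had 0.04, 0.14 and 0.10 in TBI hippocampus, against 0.34, -0.15 and -0.01 in naive hippocampus. Both sets of arrays overlapped, and naive replicate 2 was the highest array for miR-146a.

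The white blood cell miRNAs miR-142-3p and miR-223 lay above every naive array in TBI replicates 2 and 3, and within the naive range in TBI replicate 1. miR-142-3p, made in all haematopoietic cells, had -2.89, -1.70 and -1.62 in TBI hippocampus, against -3.27, -2.58 and -3.03 in naive hippocampus. TBI exceeded naive by 0.89 (standard error 0.35, limma adjusted p = 0.218), or 1.30 without TBI replicate 1, the only alternative under which it passed the adjusted test. miR-223, characteristic of neutrophils and other myeloid cells, had -5.07, -2.17 and -2.16 in TBI hippocampus, against -5.96, -4.19 and -5.75 in naive hippocampus. Only 2 of the 3 arrays on either side showed it well above background, so it was not tested, and the TBI mean was higher by 2.17. Among the 181 miRNAs that were not tested, 127 were not well above background on any of the 6 arrays, and apart from members of the named sets only miR-223 and miR-152 had group means over 1 apart. miR-150, abundant in mature lymphocytes, went the other way, with -1.26, -1.31 and -1.24 in TBI hippocampus and -1.07, -0.97 and -1.16 in naive hippocampus (difference -0.20, standard error 0.09, adjusted p = 0.228 from limma). These arrays did not overlap. The 2 tested members of the leukocyte list summed to between -0.85 and -0.42 in TBI hippocampus and between -0.81 and -0.56 in naive hippocampus. miR-451, made in red cells, spread over more than 1.5 units in each group, with -2.56, -0.97 and -1.32 in TBI hippocampus and -2.25, -1.29 and -3.38 in naive hippocampus.

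Vessel and choroid plexus miRNAs were set apart by 1 naive array. miR-143, of smooth muscle and pericytes, had -0.37, -0.28 and -0.31 in TBI hippocampus, against -0.19, 1.44 and -0.42 in naive hippocampus. miR-204, strongly expressed in choroid plexus, had -0.59, -0.96 and -0.60 in TBI hippocampus, against -0.89, 1.03 and -0.68 in naive hippocampus. In both, naive replicate 2 was the highest array by over 1 unit and the other 5 arrays overlapped. Without it the difference of miR-143 moved to -0.01 and that of miR-204 to 0.06, compared with -0.60 and -0.54 with it. The ciliated-cell miRNAs miR-34b and miR-34c, neighbours on chromosome 8, were also highest in naive replicate 2 and lowest in naive replicate 1. miR-34b had -1.36, -2.60 and -1.86 in TBI hippocampus and -3.34, -0.90 and -2.17 in naive hippocampus, a difference of 0.20 with a standard error of 0.60. The 2 tested vessel members summed to between 0.87 and 0.97 in TBI hippocampus and between 0.91 and 2.10 in naive hippocampus. The 3 tested choroid plexus and ependyma members summed to between -0.40 and 0.31 in TBI hippocampus and between -0.55 and 1.497 in naive hippocampus. miR-211 and miR-449a of the same list were at the floor of -6.74 on all TBI and naive arrays, where a value is only a limit. miR-126, of endothelium, had 0.07, 0.19 and 0.20 in TBI hippocampus, against 0.27, 0.65 and 0.18 in naive hippocampus, and again naive replicate 2 was highest. Its opposite strand, miR-126*, had -4.79, -4.82 and -4.85 in TBI hippocampus and -4.74, -4.26 and -4.73 in naive hippocampus, and these did not overlap (difference -0.24, but 0.07 with normexp).

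**Figure D2:**
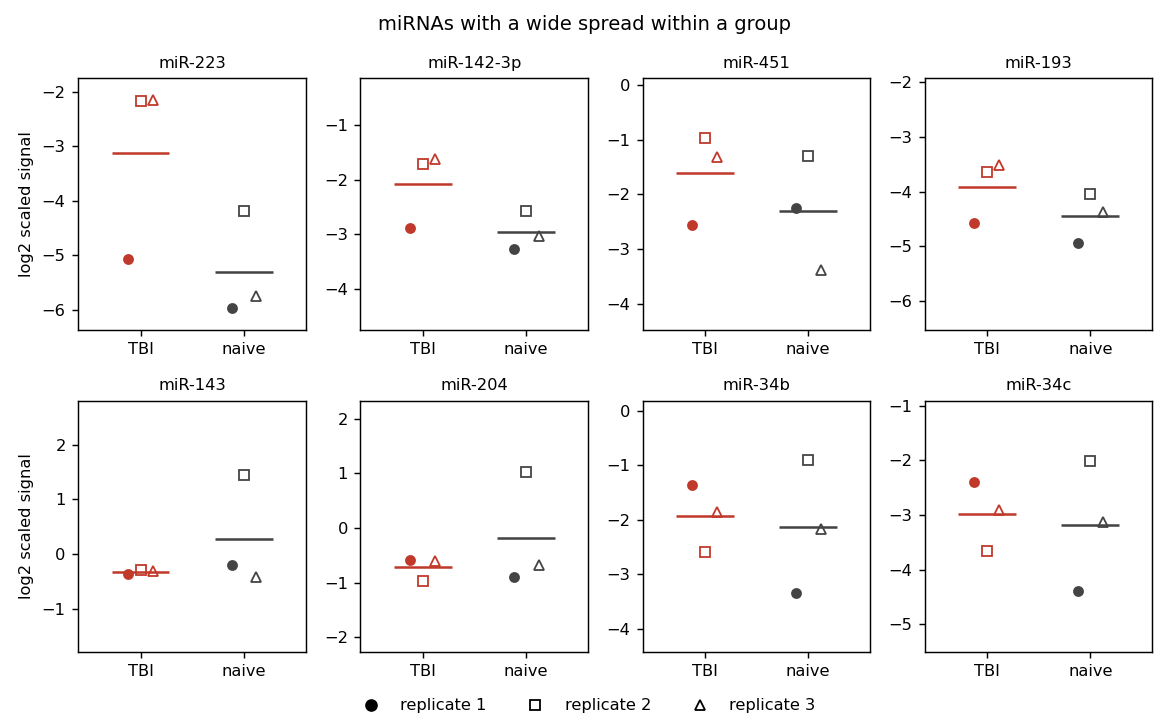
Log2 scaled signal (y axis, the same span in each panel) of 8 miRNAs on the 3 TBI and 3 naive arrays, with a marker for each replicate and a line at the group mean. TBI replicate 1 lies at or near the naive arrays for miR-223, miR-142-3p and miR-193, and naive replicate 2 is the highest naive array in all 8 panels.

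Several miRNAs that share a seed or a locus with the miR-17 to miR-92a cluster or with miR-15b had small, even differences. miR-25, which lies with miR-93 and miR-106b and shares its seed with miR-92a, had -2.23, -2.19 and -2.21 in TBI hippocampus, against -2.42, -2.47 and -2.57 in naive hippocampus. The groups did not overlap, and the difference was 0.28 (1.21-fold, standard error 0.08, adjusted p = 0.171 from limma). miR-93 and miR-106b had differences of 0.16 and 0.15, and their arrays overlapped. miR-16, which restrains cell division and lies 3′ of miR-15b, had 1.38, 1.38 and 1.37 in TBI hippocampus, against 1.17, 1.201 and 1.10 in naive hippocampus. The difference of 0.22 (limma adjusted p = 0.193, standard error 0.08) was 1.16-fold, below the fold threshold of the t-test, and the SD was 0.0067 among TBI arrays and 0.054 among naive arrays. Of 5 members with the seed AGCAGCA that were tested, 4 had a higher mean in TBI and 3 did not overlap (miR-15b at 0.34, miR-16 at 0.22 and miR-195 at 0.13), where 43.2% of all 169 had a higher mean and 8.88% lay higher without overlap. miR-15b is among the miRNAs that the study chose on these arrays, so its part in these counts is no independent evidence. The member with a lower mean, miR-322 of an X-linked cluster, was at -0.14, or 0.05 without naive replicate 2. The median of the 5 was 0.13, and 0.03 without scaling, against -0.05 and -0.15 over all 169. On the other slide the median of the 5 was -0.06 for injury with JM6 or E33 minus sham. The 4 members with the seed AAAGUGC, of the miR-17 to miR-92a cluster and the miR-106b locus, ran between 0.15 and 0.76.

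miR-101a and miR-101b, repressors of the chromatin enzyme Ezh2 made from separate chromosomes and differing by A16G (position counted from the 5′ end, miR-101a's base first), lay higher on all TBI arrays. miR-101a had -0.54, -0.44 and -0.51 in TBI hippocampus, against -0.57, -0.58 and -0.57 in naive hippocampus, and miR-101b had -1.48, -1.53 and -1.39 in TBI hippocampus, against -1.69, -1.53 and -1.58 in naive hippocampus. The differences of 0.08 and 0.14 were within limma's 95% intervals of 0, and miR-101a was at -0.02 without scaling. let-7b, of the family that holds back proliferation, had 2.64, 2.57 and 2.65 in TBI hippocampus, against 2.56, 2.48 and 2.48 in naive hippocampus, a difference of 0.11. Of the 8 let-7 and miR-98 members 7 had a higher mean in TBI, all between -0.09 and 0.14, with a median of 0.06, or -0.04 without scaling. All 5 members of the miR-23, miR-27 and miR-24 clusters had a higher mean, between 0.10 and 0.24, and all 5 overlapped. miR-193, which is transcribed beside miR-365, had -4.57, -3.65 and -3.52 in TBI hippocampus, against -4.94, -4.05 and -4.38 in naive hippocampus, a difference of 0.54 (limma adjusted p = 0.40, standard error 0.32) that was 0.87 without TBI replicate 1, 0.34 without TBI replicate 3 and 0.30 without naive replicate 1. miR-365, 1 of the 10, was at 0.35 without overlap. miR-333_v11.0, named as in the array design, had -4.12, -3.996 and -3.99 in TBI hippocampus, against -4.23, -4.33 and -4.92 in naive hippocampus, where replicate 3 alone made much of the difference of 0.46 (0.24 without it).

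**Figure D3:**
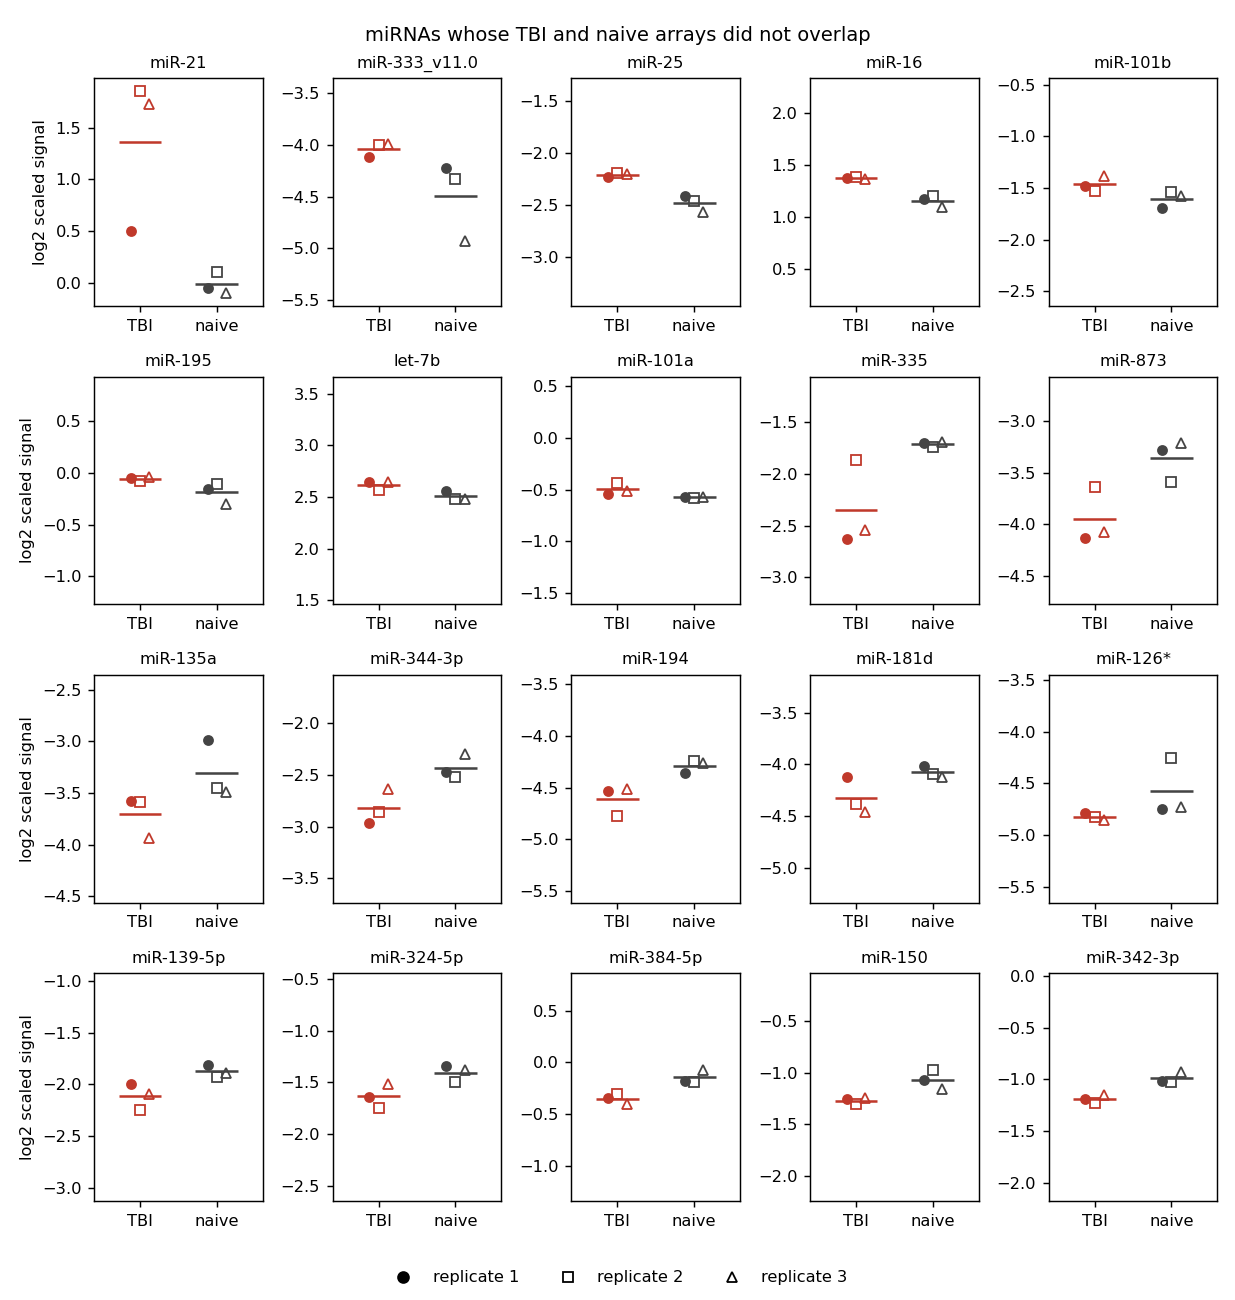
Log2 scaled signal (y axis, the same span in each panel) on the 3 TBI and 3 naive arrays for the 20 miRNAs named here whose groups did not overlap, with a marker for each replicate and a line at the group mean. miR-21 has the widest gap between means, whereas in miR-16, miR-384-5p, miR-150 and miR-342-3p the gaps are near 0.2 and the replicates lie close together.

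Among the lower miRNAs, miR-335 and miR-873 had the largest differences without overlap. miR-335, hosted in the imprinted gene Mest, had -2.63, -1.87 and -2.54 in TBI hippocampus, against -1.70, -1.74 and -1.69 in naive hippocampus. The difference was -0.64 (0.642-fold, standard error 0.20, adjusted p = 0.171 from limma), and TBI replicate 2 lay just below the naive arrays. Without that array it was -0.88, with an adjusted p of 0.0131. This was the only 1 of 19 alternatives under which miR-335 passed limma's adjusted test, and its adjusted p ranged from 0.0131 to 0.989. miR-873 had -4.13, -3.64 and -4.08 in TBI hippocampus, against -3.28, -3.59 and -3.21 in naive hippocampus, a difference of -0.59 (limma adjusted p = 0.171, standard error 0.17). miR-344-3p, a rodent miRNA of the brain, had -2.97, -2.86 and -2.64 in TBI hippocampus, against -2.47, -2.52 and -2.30 in naive hippocampus (difference -0.39, standard error 0.12, adjusted p = 0.171 from limma). With normexp the differences were -0.49 for miR-335, -0.36 for miR-873 and -0.27 for miR-344-3p.

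Of the 13 neuron-enriched miRNAs tested, 12 had a lower mean in TBI hippocampus and 1 (miR-138) a higher one, with a median of -0.18, against -0.05 over all 169. Their arrays did not overlap in 2, both lower (miR-344-3p and miR-384-5p), which is no larger a share than the 18.9% over all 169. The median stayed between -0.24 and -0.17 when any 1 array was left out and between -0.28 and -0.11 under the other scalings and background correction. miR-124, the main miRNA of mature neurons, had 3.64, 3.59 and 3.73 in TBI hippocampus, against 3.86, 3.66 and 3.86 in naive hippocampus, a difference of -0.14 (limma adjusted p = 0.467, standard error 0.10). miR-384-5p, which is active in synaptic potentiation, had -0.34, -0.30 and -0.41 in TBI hippocampus, against -0.18, -0.19 and -0.07 in naive hippocampus (difference -0.21, standard error 0.09, adjusted p = 0.225 from limma). It carries the seed of the miR-30 family. Of that family miR-30e, at -0.11, also lay lower without overlap, while miR-30b-5p and miR-30d had higher means in TBI, at 0.17 and 0.12. miR-7a and miR-7b, which differ by A10U and act in secretory neurons, both had lower means, at -0.46 and -0.45, but overlapped. miR-7a had 0.54, 0.31 and 0.62 in TBI hippocampus, against 0.50, 1.15 and 1.204 in naive hippocampus, so that naive replicate 1 lay among the TBI arrays. miR-383, also on the list, was at -0.51 and overlapped through naive replicate 2. Of the star strands, so called for the arm that is usually degraded, miR-9* was at 0.01, and miR-9 of the same hairpin at -0.01.

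A further 5 miRNAs named for their lower arrays without overlap, and miR-133b, are not on the neuron list. miR-139-5p, hosted in a phosphodiesterase gene, had -1.99, -2.25 and -2.09 in TBI hippocampus, against -1.81, -1.93 and -1.89 in naive hippocampus (difference -0.24, standard error 0.10). miR-324-5p had -1.64, -1.75 and -1.52 in TBI hippocampus, against -1.34, -1.496 and -1.38 in naive hippocampus (difference -0.23, standard error 0.10). miR-342-3p had -1.19, -1.22 and -1.15 in TBI hippocampus, against -1.01, -1.03 and -0.93 in naive hippocampus (difference -0.20, standard error 0.08). Their adjusted p was 0.225 each (limma), and the differences kept their sign under every alternative run. miR-135a, known in mice as a repressor of the serotonin transporter, had -3.58, -3.59 and -3.93 in TBI hippocampus, against -2.99, -3.46 and -3.49 in naive hippocampus, a difference of -0.39, but -0.09 with normexp. miR-194, transcribed beside miR-192 and known from gut and liver, had -4.53, -4.78 and -4.52 in TBI hippocampus, against -4.36, -4.25 and -4.26 in naive hippocampus. Its difference of -0.32 (limma adjusted p = 0.174, standard error 0.10) was -0.02 with normexp, and miR-192 was at -0.07, or 0.12 with normexp. miR-133b, a miRNA of muscle and midbrain, had the lowest difference of all, -0.72, and overlapped, with -4.77, -4.29 and -4.64 in TBI hippocampus and -3.98, -3.25 and -4.29 in naive hippocampus. It entered the tests through 1 group only, and its difference was -0.28 with normexp.

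In the miR-181 family the sign of the difference went with the locus. The members miR-181c and miR-181d of chromosome 19 were lower on all TBI arrays, at -0.44 and -0.25. miR-181a and miR-181b of the other loci had higher means, at 0.09 and 0.16, and overlapped. All 4 carry the seed ACAUUCA. miR-181c is among the miRNAs that the study chose on these arrays, so its sign is no independent evidence of a split by locus. Its brighter probe gave -0.27, against -0.44 for the probe used. On the other slide miR-181c had -3.83 and -3.83 in sham, -3.70, -3.71 and -4.06 in TBI+JM6 and -3.82 and -3.85 in TBI+E33 hippocampus. miR-181d had -4.13, -4.39 and -4.46 in TBI hippocampus, against -4.01, -4.10 and -4.12 in naive hippocampus, and TBI replicate 1 was within 0.01 of naive replicate 3. With normexp miR-181c was at -0.07 and miR-181d at 0.03, while miR-181a and miR-181b stayed at 0.08 and 0.14, and without scaling miR-181a was at -0.01.

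Oligodendrocyte miRNAs had means close to those of naive hippocampus. miR-338, which promotes myelinating differentiation, had 2.21, 1.96 and 1.74 in TBI hippocampus, against 2.07, 1.73 and 1.89 in naive hippocampus, and all 3 tested members had higher means, from 0.07 to 0.16, with overlap. miR-338 was at -0.03 without scaling and at -0.03 with quantile normalization. Families that many cell types share stayed near 0. The 3 miR-29 members lay between -0.10 and -0.01, the 5 miR-30 members between -0.11 and 0.17, the 5 miR-125, miR-99 and miR-100 members between -0.05 and 0.16, miR-103 and miR-107 at 0.02 and -0.05, and miR-26a and miR-26b at 0.08 and 0.06. miR-34a, transcribed under the control of p53, was at 0.01 with a standard error of 0.35 and ran from -0.82 to -0.20 in TBI hippocampus and from -1.19 to 0.24 in naive hippocampus. miR-210, induced by hypoxia, had -4.44, -4.14 and -4.34 in TBI hippocampus, against -4.30, -4.15 and -4.50 in naive hippocampus, a difference of 0.01. miR-130a was at -0.33, miR-148b-3p at -0.06 and miR-652 at -0.09, all with overlap.

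**Figure D4:**
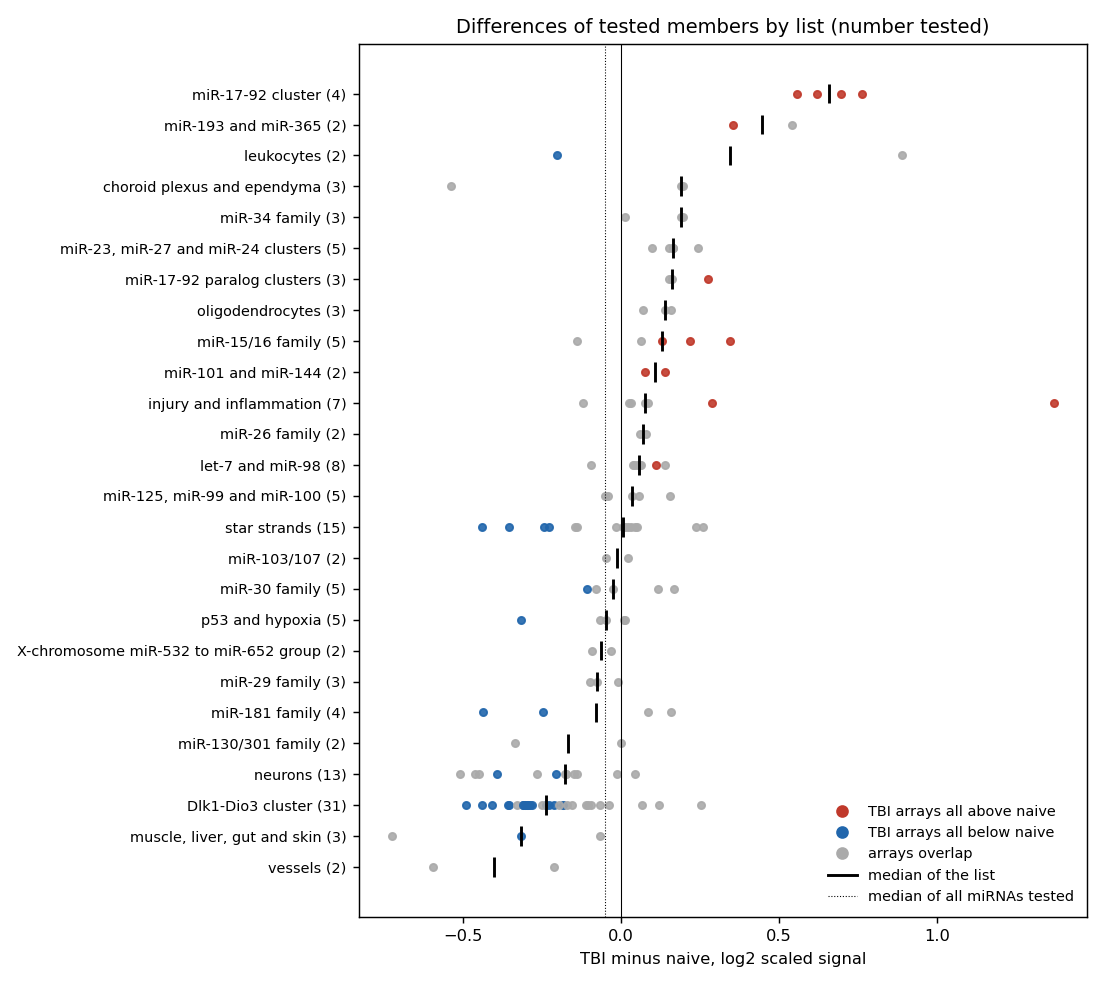
TBI minus naive difference (log2 scaled signal, x axis) of each tested member (points) of the lists with at least 2 tested members (y axis, number tested in brackets), with colour for overlap of the 3 TBI and 3 naive arrays. The list median is a black tick and the dotted line is the median of all 169 miRNAs, -0.05; 12 of the 13 neuron miRNAs lie left of 0 and all 5 of the miR-23, miR-27 and miR-24 clusters right of it.

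Pairs of arms cut from 1 hairpin are read by different probes, but on the same arrays with the same scaling, so their signs are not independent. Some arms, such as miR-181a, also come from more than 1 locus. Outside Dlk1-Dio3 both arms were tested for 11 hairpins, and in 9 both differences had 1 sign. In miR-140 and miR-140* they were -0.22 and -0.14, in miR-324-5p and miR-324-3p -0.23 and -0.09, in miR-219-5p and miR-219-2-3p 0.14 and 0.16, and in miR-22 and miR-22* 0.10 and 0.26. With normexp the arms of miR-126 (-0.20 and 0.07) and of miR-340 (-0.04 and 0.16) no longer had 1 sign. The arms that differed in sign with the main processing, of miR-30a and miR-9, lay within 0.04 of 0. Different probes of 1 miRNA also differed little. For the 123 miRNAs with several probes well above background on all 6 arrays, the median gap between the probes' differences was 0.02, and in 8 the probes differed in sign.

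The miR-17 to miR-92a cluster and the Dlk1-Dio3 region lay on opposite sides. All 4 tested members of the miR-17 to miR-92a cluster, which drives proliferation, were higher on every TBI array, between 0.56 and 0.76. Of the 31 tested Dlk1-Dio3 miRNAs, a large imprinted group of neurons, 28 had a lower mean and 17 did not overlap, all lower. Over all 169, 56.8% had a lower mean, 18.9% lay lower without overlap and 8.88% lay higher without overlap. The Dlk1-Dio3 median was -0.24, or -0.14 with normexp. The study's 10 miRNAs, chosen on these arrays, include members of both, so these counts are no independent evidence of direction. On the other slide, for injury with JM6 or E33 minus sham, the medians were 0.49 for the cluster and 0.15 for Dlk1-Dio3.

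By brightness, 34 of the 57 dimmest miRNAs, 34 of the 56 in the middle and 28 of the 56 brightest had a lower mean in TBI, and 14, 13 and 5 of them lay below without overlap. With normexp, another background correction, run with an offset of 50 added to the signals, 20 of the dimmest were lower and their median was 0.05, compared with -0.07. An added offset by itself shrinks log2 differences of dim probes, which was not told apart from the correction. In the middle group 34 were still lower and the median was -0.055, compared with -0.068, and the brightest had a median of 0.00 and, with normexp, -0.01. With normexp the difference moved to -0.02 for miR-194, 0.03 for miR-181d and 0.07 for miR-126*, while miR-139-5p was at -0.18, miR-384-5p at -0.20, miR-150 at -0.16 and miR-342-3p at -0.18.

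The other slide holds rats injured and given JM6 or E33, set against sham-operated rats, with no array in common with the comparison above. The negative controls of TBI+JM6 replicate 1 had an SD of 1350, against 3.34 to 70.17 on the other arrays of the series. On this slide too, row was partly tied to group. Sham and TBI+JM6 replicate 1 lay in row 1, and the remaining TBI+JM6 and TBI+E33 arrays in row 2. There 13 of the 169 miRNAs passed limma's adjusted test (7.69%), 17 were higher (10.1%) and 10 lower (5.92%) at an unadjusted p under 0.05, and compound and injury cannot be told apart. miR-21 was higher by 1.37 in injured than in sham hippocampus (adjusted p = 0.000104 from limma), the same size as in TBI against naive hippocampus, with 1.95, 1.87 and 1.86 in TBI+JM6 hippocampus, 1.76 and 1.91 in TBI+E33 hippocampus, and 0.44 and 0.55 in sham hippocampus. On that slide miR-142-3p was at 1.33 (adjusted p = 0.00698), miR-193 at 0.70 (adjusted p = 0.00338) and miR-27a at 0.34 (adjusted p = 0.0248, limma), beside 0.89, 0.54 and 0.24 for TBI minus naive. In all 4 the injured mean was higher in both contrasts, though miR-193 had entered the tests through 1 group only. With normexp miR-21 alone of the 13 passed on that slide, so the calls of miR-142-3p, miR-193, miR-27a, miR-34b and miR-34c were lost, while miR-21 passed there in every alternative run. Among other miRNAs without overlap between TBI and naive hippocampus, miR-324-5p and miR-181d had lower injured means there too, at -0.11 and -0.20, neither past the adjusted test. The sham arrays had -3.80 and -3.37 for miR-181d. miR-333_v11.0 had a higher injured mean in both contrasts. miR-150, miR-194 and miR-126* had higher injured means there and miR-195 a lower one, opposite to TBI minus naive. For miR-139-5p the means differed little there, with sham arrays at -2.28 and -3.38. miR-25 was at -0.06, miR-16 at 0.02, miR-101a at -0.18, miR-101b at -0.13 and let-7b at -0.10, and of the lower ones miR-335 was at 0.29, miR-135a at 0.15, miR-344-3p and miR-384-5p at 0.00, and miR-342-3p at 0.05. The neuron list had a median of -0.01 there, against -0.18 in TBI minus naive.

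Over all 169 miRNAs the differences had the same sign in both contrasts in 72, and across the miRNAs Spearman's rho between them was -0.20 but Pearson's r was 0.20. These are given as a description, with no order read from them, because miRNAs of 1 array share its scaling and labelling. The difference between the contrasts, fitted over the 16 arrays with a term for slide, passed limma's adjusted test in 3 miRNAs (1.78%, with 30 or 17.8% at an unadjusted p under 0.05), namely miR-873, miR-541 and miR-543*, of which the last 2 belong to Dlk1-Dio3. For miR-25, miR-16 and miR-335 its adjusted p was 0.233, 0.307 and 0.155 (limma). The TBI+PMI arrays, the only group on both slides, add to the spread estimated in that fit. miR-34b and miR-34c were lower by 1.70 and 1.62 in injured than in sham hippocampus (adjusted p = 0.0229 and 0.0248 from limma), where the sham arrays had -0.04 and -1.38 for miR-34b. miR-204 was at -1.61 there (adjusted p = 0.197 from limma), with sham arrays at 2.17 and -0.34.

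**Figure D5:**
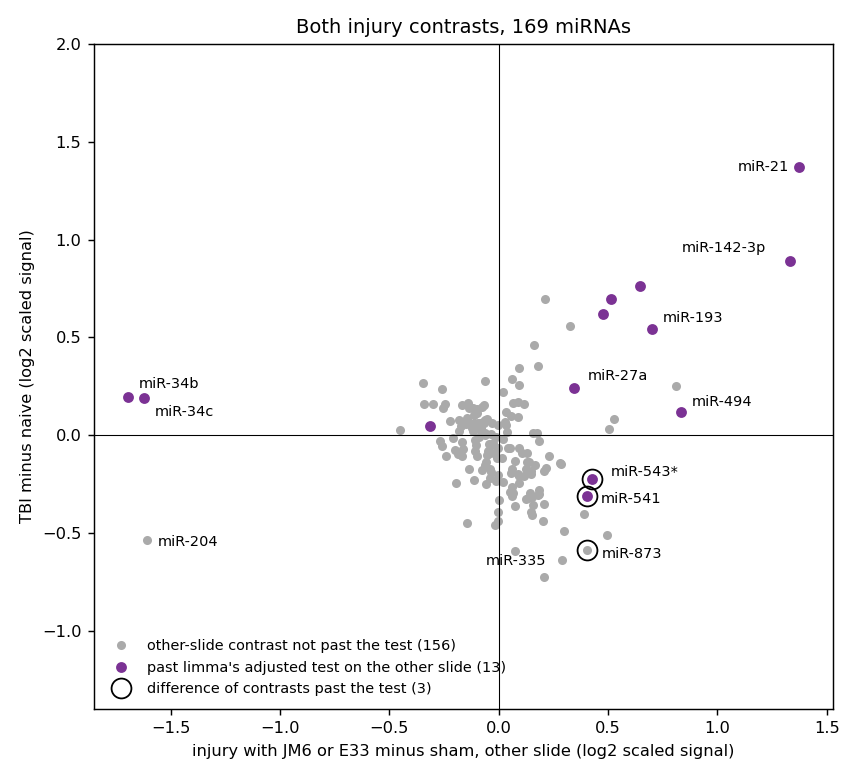
TBI minus naive difference (y axis) against injury with JM6 or E33 minus sham on the other slide (x axis), both in log2 scaled signal, for the 169 miRNAs. miR-21 (1.37 and 1.37) and miR-142-3p lie far out along both axes, while miR-34b, miR-34c and miR-204 lie furthest left on the x axis.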

How the data were processed

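RNA of 6 arrays (3 TBI, 3 naive) was compared, with 7 arrays of another slide beside it. The authors deposited scanner files from Agilent Feature Extraction 9.5.3.1, whose processed intensity per spot is background-subtracted and not scaled between arrays, with flag columns that mark spots (other values). The authors' table holds intensities from GeneSpring GX11, scaled by 1 constant per array whose origin is not given in the sources used here, and served as an alternative. Probes were annotated on rn4 by the array design.

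Outlier spots were left out and replicate spots averaged. Signals were divided by the array's own 75th percentile (1945 to 3723 on the 6 arrays), taken from the 284 probes that no array of the 16 failed to detect, then floored at -6.74 after log2. One probe stood for a miRNA, the one in the study's supplementary tables for its 10 miRNAs and the brightest otherwise. TBI and naive were set against each other by limma (lmFit, then eBayes; version 3.58.1, R 4.3.3) at a Benjamini-Hochberg threshold of 0.05, with no slide term because all 6 arrays share a slide, and by the methods' t-test. The scripts were tested on simulated data. The number of arrays limits the precision.

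The miRNAs named are those without overlap (up to 12 in each direction, by size), those past a test, and the brightest tested member of each list, outside the 10 and the miR-17 to miR-92a and Dlk1-Dio3 sets. Other miRNAs named were chosen after their values were seen. Members and lists were chosen with earlier results of these data known. Names matched RefSeq for 303 of 350 miRNAs. Replicate numbers were not taken as pairs, since arrays of 1 number correlated at -0.23, -0.12 and 0.12 after removing group means.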

Additional observations from a re-analysis of the deposited data

Results flagged for a closer look

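For 3 miRNAs the difference of TBI from naive hippocampus was itself unlike that of injured hippocampus with JM6 or E33 from sham hippocampus on the other slide, by limma's adjusted test over the 16 arrays with a term for slide. miR-873 had a difference between the contrasts of -0.99 (95% interval -1.47 to -0.52, adjusted p = 0.0356 from limma), with -0.59 for TBI minus naive and 0.40 on the other slide. Its signals were -4.13, -3.64 and -4.08 in TBI, -3.98, -3.83 and -3.77 in TBI+JM6, -3.38 and -3.74 in TBI+E33, -4.001 and -4.23 in sham and -3.28, -3.59 and -3.21 in naive hippocampus. miR-541, of the Dlk1-Dio3 region, had a difference between the contrasts of -0.71 (95% interval -1.04 to -0.38, adjusted p = 0.0356 from limma), with -0.31 for TBI minus naive and 0.40 on the other slide. Its signals were -4.52, -4.65 and -4.69 in TBI, -4.18, -4.19 and -4.28 in TBI+JM6, -4.18 and -4.20 in TBI+E33, -4.58 and -4.64 in sham and -4.22, -4.45 and -4.27 in naive hippocampus. miR-543*, of the same region, had a difference between the contrasts of -0.65 (95% interval -0.91 to -0.40, adjusted p = 0.0221 from limma), with -0.23 for TBI minus naive and 0.43 on the other slide. Its signals were -2.88, -2.77 and -2.97 in TBI, -2.83, -2.65 and -2.82 in TBI+JM6, -2.63 and -2.66 in TBI+E33, -3.13 and -3.13 in sham and -2.70, -2.72 and -2.52 in naive hippocampus. Naive and sham handling, the compounds and the slide all differ between the contrasts and cannot be told apart. This test passed 0 miRNAs with normexp, the percentile over all probes, quantile normalization or the authors' values. The authors' values held no star strands, so miR-543* was not tested in them.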

How the results depend on the processing

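Of 794 values of the 42 named miRNAs under the alternatives, 32 changed sign, in 14 miRNAs. With normexp the difference was 0.034 for miR-181d, 0.066 for miR-126*, 0.12 for miR-192 and -0.00032 for miR-9*. With the percentile over all probes the difference was 0.025 for miR-107, 0.020 for miR-125b-5p, 0.015 for miR-148b-3p and 0.0040 for miR-192. With quantile normalization the difference was -0.027 for miR-338. Without scaling the difference was -0.025 for miR-101a, -0.029 for miR-338, -0.014 for miR-181a, -0.020 for miR-26a, -0.089 for miR-34a and -0.088 for miR-9*. In the authors' values the difference was 0.012 for miR-107, 0.0073 for miR-125b-5p and 0.0029 for miR-148b-3p. With 1 array left out it ranged from -0.050 to 0.19 for miR-338, from -0.0012 to 0.15 for miR-181a, from -0.11 to 0.037 for miR-107, from -0.13 to 0.025 for miR-125b-5p, from -0.13 to 0.033 for miR-148b-3p, from -0.30 to 0.41 for miR-34a, from -0.063 to 0.085 for miR-9*, from -0.89 to 0.065 for miR-204 and from -0.29 to 0.051 for miR-322. limma's adjusted test of TBI against naive passed 1 miRNA with normexp, 1 without scaling, 4 in the authors' values, 4 on all 16 arrays with the slide, and 0 to 8 with 1 array left out (8 without TBI replicate 1, 2 without TBI replicate 2). The t-test's lower calls were 5 with normexp, 3 with the percentile over all probes, 4 with quantile normalization, 0 without scaling, 4 in the authors' values and 3 to 13 with 1 array left out, and its higher calls 0 without scaling and 1 to 10. With the replicate block, although the replicate numbers were not found to pair the arrays, it called 5 higher and 5 lower. miRNAs lower without overlap numbered 9 with the percentile over all probes, 14 with quantile normalization, 17 in the authors' values, 2 without scaling and 37 to 57 with 1 array left out, and those higher 1 without scaling and 15 to 33. Leaving out an array cannot undo a lack of overlap, so these counts cannot fall. As many as 201 miRNAs entered the tests in such runs. On the other slide 1 passed with normexp, 6 without scaling and 4 to 14 with 1 array left out. The difference between the contrasts passed 0 with normexp, the percentile over all probes, quantile normalization or the authors' values, 1 with no filter and 0 to 3 with 1 array left out. All counts in the authors' values are over 154 miRNAs, without the star strands. The causes were not tested. Signals near background limit the dimmest miRNAs.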
